A study of Mus musculus with 12 samples.

Results

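FHL2 was compared with control in 3T3-L1 cells after 2 days of adipogenic induction. The comparison sets the 3 libraries labelled FHL2 at day 2 against the 3 control libraries of the same day, which are 6 of the 12 libraries of the series and are assigned to it by their labels. 3T3-L1 is a mouse preadipocyte line that turns into fat cells under a hormone mixture, and the labels class it as mesenchymal stem cells. FHL2 cells carried an FHL2-GFP construct and are labelled as overexpressing FHL2, and control cells carried the CTRL-GFP construct. Confluent cells of both kinds received 170 nM insulin, 1 µM dexamethasone and 0.5 mM isobutylmethylxanthine with 10% fetal bovine serum from day 0 until day 2. Polyadenylated RNA was then sequenced in stranded libraries. The sources used here do not give the promoter of the construct, the species of its FHL2 sequence, how the cells were selected or whether the 3 libraries of a group came from separate cultures. Each p-value therefore measures only the spread between libraries.

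FHL2 is a LIM-domain protein without DNA binding of its own that joins transcription factors and signalling proteins as a cofactor. NFAT5, which the title of the series sets in a complex with FHL2, is a transcription factor that raises genes of osmolyte uptake and synthesis when the medium is hypertonic. In the first days of induction, 3T3-L1 cells re-enter the cell cycle and switch on Cebpb and Cebpd, which precede Pparg and Cebpa, the regulators that turn on the genes of the fat cell.

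The libraries at day 2 held 10047708 to 18081275 counts and had a count for 12689 to 16131 genes. The numbers of genes fell into separate sets that crossed the labels, since FHL2 replicates 1 and 2 and control replicate 3 had 12689 to 14158 genes and the other 3 libraries had 15065 to 16131. The mitochondrial share of counts was 2.43% to 2.95%. Markers of mesenchymal cells were high in every library, with a summed level of 27620 to 33570 CPM (counts relative to the scaled library total), and 0 of 15 were without a count in all 6 libraries. Markers of other cell types stayed low beside these. The highest sum was that of bone and cartilage markers, with Runx2 the highest member at 35.3 CPM or less. That sum was 27.4 to 31.7 CPM in the libraries labelled FHL2 and 24.7 to 40.95 CPM in control. Of the macrophage and blood markers, 10 of 15 had no count in any library (Ptprc and Adgre1 among them), as had 10 of 14 muscle markers, 6 of 15 bone and cartilage markers, 5 of 10 epithelial markers and 3 of 11 endothelial markers. The summed endothelial markers were 10.6 to 14.7 CPM in the libraries labelled FHL2 and 19.6 to 21.3 CPM in control, mostly through Flt1 at 17.4 CPM or less, and the part of this difference in the results was not tested. In bulk RNA, fewer cells of a type and less RNA per cell cannot be told apart.

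The targeted gene itself did not separate the groups. Fhl2 was at 17.2, 9.10 and 20.7 CPM in the libraries labelled FHL2 and at 12.7, 13.0 and 19.3 CPM in control, so the groups overlapped. Its log2 fold change was 0.07 ± 0.35 (SE, adjusted p = 0.981). At day 0 the levels were 68.9 ± 4.06 CPM (SD, n = 3) under the FHL2 label and 66.2 ± 3.83 CPM in control. No source used here says if reads from the construct were assigned to mouse Fhl2, so its count is no check of the label, and the groups are named below as labelled. Nfat5 was at 269, 183 and 108 CPM under the FHL2 label and at 291, 226 and 224 CPM in control (log2 fold change -0.40 ± 0.24, adjusted p = 0.692). FHL2 replicate 3 was the lowest of the 6 for Nfat5, and replicate 1 lay within the control range.

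Across all 12819 tested genes, 39 passed an adjusted p of 0.05 in edgeR's quasi-likelihood test of the day 2 libraries alone, or 0.304% of the genes tested. They were 8 genes higher in the libraries labelled FHL2 (0.0624%) and 31 lower (0.242%). The levels of the groups did not overlap in any of the 39, which was true of 2040 tested genes (15.9%). Only 16 of the 39 changed by at least 2-fold, and the median log2 fold change of all tested genes was 0.014. The largest group among the genes that fell was the sugar-breakdown pathway with genes of the hypoxia response, followed by genes of the extracellular matrix. Without adjustment, 1141 genes had a p under 0.05, of which 518 were higher and 623 lower. Each of the 39 kept its direction in every alternative fit, while the calls depended on single libraries. Without control replicate 2 there were 4 calls (Fosl1, Cbr2, Igfbp4 and Mif), without FHL2 replicate 2 these and Pfkl and Gm13394, and without FHL2 replicate 1 there were 31. A term for the number of genes detected ended the calls of Gpi1, Car9, Emb, Net1, Col18a1 and Rplp1, and the fit of all 12 libraries that of Agt.

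**Figure D1:**
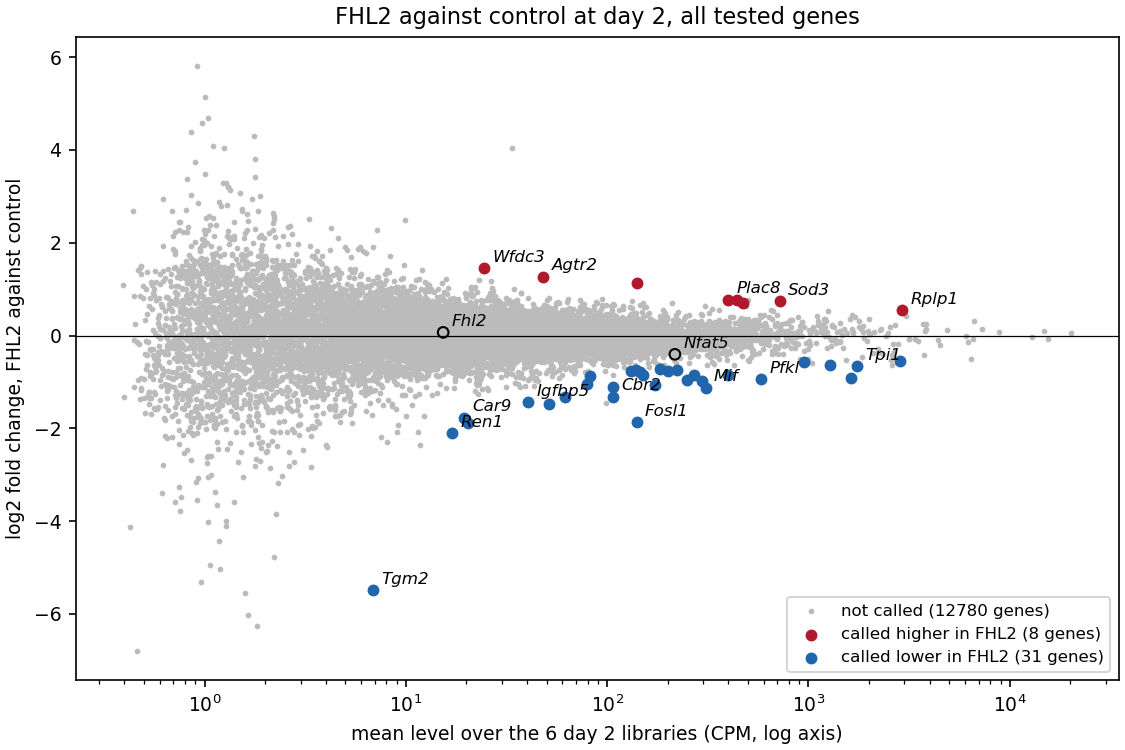
Log2 fold change of the libraries labelled FHL2 against control at day 2 (y axis) by mean level over the 6 libraries (CPM, log axis), 1 point per tested gene. The 8 genes called higher and the 31 called lower are in colour, Fhl2 and Nfat5 are ringed near the middle, and the called genes range from Tgm2 at the low end of the levels to Rplp1 at the high end.

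The enzymes of glycolysis, which break glucose down to pyruvate, had lower values under the FHL2 label along most of the pathway. The list of glycolysis and hypoxia response genes had 32 tested members, of which 7 fell and 0 rose, 30 had a negative log2 fold change and 21 had all 3 libraries labelled FHL2 below all 3 controls. Over all genes, 7.91% had that order, and 0.242% were called lower and 0.0624% higher. The median log2 fold change of the list was -0.56. The called members were Gpi1, Pfkl, Tpi1, Pgam1 and Eno1 of the pathway and Egln1 and Car9 of the hypoxia response. Gpi1, Tpi1 and Eno1, like other genes named below where it is said, fall outside the rule for named genes and were chosen after their values were seen.

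Pfkl, the liver form of phosphofructokinase, which commits sugar to glycolysis, was at 318, 467 and 403 CPM in the libraries labelled FHL2 and at 689, 797 and 804 CPM in control. The highest FHL2-labelled library was well below the lowest control, and Pfkl was 1.93-fold lower (log2 fold change -0.95 ± 0.14, adjusted p = 0.0129). Gpi1, which converts glucose 6-phosphate to fructose 6-phosphate one step earlier, was at 732, 821 and 739 CPM against 1066, 1224 and 1099 CPM (1.48-fold lower, adjusted p = 0.0357). Tpi1 interconverts the pieces of the split sugar, and it was at 1181, 1530.5 and 1363 CPM against 2004, 2295 and 2110.4 CPM (1.57-fold lower, adjusted p = 0.0189). Both showed groups that were narrow and apart. Pgam1, the phosphoglycerate mutase, was at 95.9, 111 and 128 CPM against 205, 294 and 198 CPM (2.08-fold lower, adjusted p = 0.0158), with control replicate 2 as the high point. Eno1, the enolase that follows it, was at 911, 1030.0 and 1054 CPM against 1401, 1640.4 and 1619 CPM (1.56-fold lower, adjusted p = 0.0182). Its near-identical copy Eno1b had the same direction (-0.74, adjusted p = 0.0348), and the counting may split reads between the pair, so the share of each is uncertain.

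The other enzymes of the pathway gave values in the same direction without passing the test. Aldoa (aldolase) was at 1462, 1690.3 and 1538 CPM against 2096, 2244 and 2099 CPM (log2 fold change -0.46, adjusted p = 0.0675). Pgk1 (-0.58, adjusted p = 0.121), Ldha (-0.54, adjusted p = 0.121) and Pkm (-0.41, adjusted p = 0.106) had groups that did not overlap. So had Pdk1, a kinase that inhibits pyruvate dehydrogenase (-1.11, adjusted p = 0.066). Gapdh, whose many copies in the genome make its counts uncertain, was at only 52.0, 54.3 and 52.4 CPM against 262, 93.8 and 76.1 CPM, with control replicate 1 far above the rest. Pfkfb3 and Pfkfb4 were the 2 members with a positive value (0.27 and 0.03, adjusted p = 0.865 and 0.994), and Hif1a itself was at -0.27 (adjusted p = 0.825). These genes were also named after their values were seen.

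Of the list's genes that respond to low oxygen through HIF, the factor that binds the element ACGTG, Car9 and Egln1 fell. Car9, a carbonic anhydrase that is a standard hypoxia marker, was at 6.89, 9.95 and 9.54 CPM under the FHL2 label and 22.2, 44.9 and 22.6 CPM in control. Control replicate 2 was the highest library and every library labelled FHL2 was below every control. Car9 was 3.40-fold lower (log2 fold change -1.77 ± 0.33, adjusted p = 0.0357). Egln1, the oxygen-sensing hydroxylase that marks HIF for destruction and is itself a HIF target, was at 52.2, 67.5 and 82.0 CPM against 116, 165 and 157 CPM (2.17-fold lower, adjusted p = 0.0189). P4ha2, which hydroxylates proline in collagen, was at 178, 201 and 202 CPM against 333, 343 and 367 CPM (1.79-fold lower, adjusted p = 0.0121). The 6 values of P4ha2 were tight within each group. Gys1, the glycogen synthase of most tissues, was at 217, 207 and 172 CPM against 365, 455 and 355 CPM (1.97-fold lower, adjusted p = 0.0121) and was named after its values were seen.

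The glycolysis calls depended on single libraries while their direction did not. Without control replicate 2, 0 of the list's members passed, with a median of -0.458, without FHL2 replicate 1 or 2 only 1 passed, and without any 1 of the other 3 libraries 4 passed. P4ha2 and Gys1 lost the call without FHL2 replicate 2 or control replicate 2 (adjusted p up to 0.0985). With an offset for transcript length 11 of the list passed and in DESeq2 17. The calls over all genes were also more in these fits, 65 and 203, against 39 in the main fit.

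**Figure D2:**
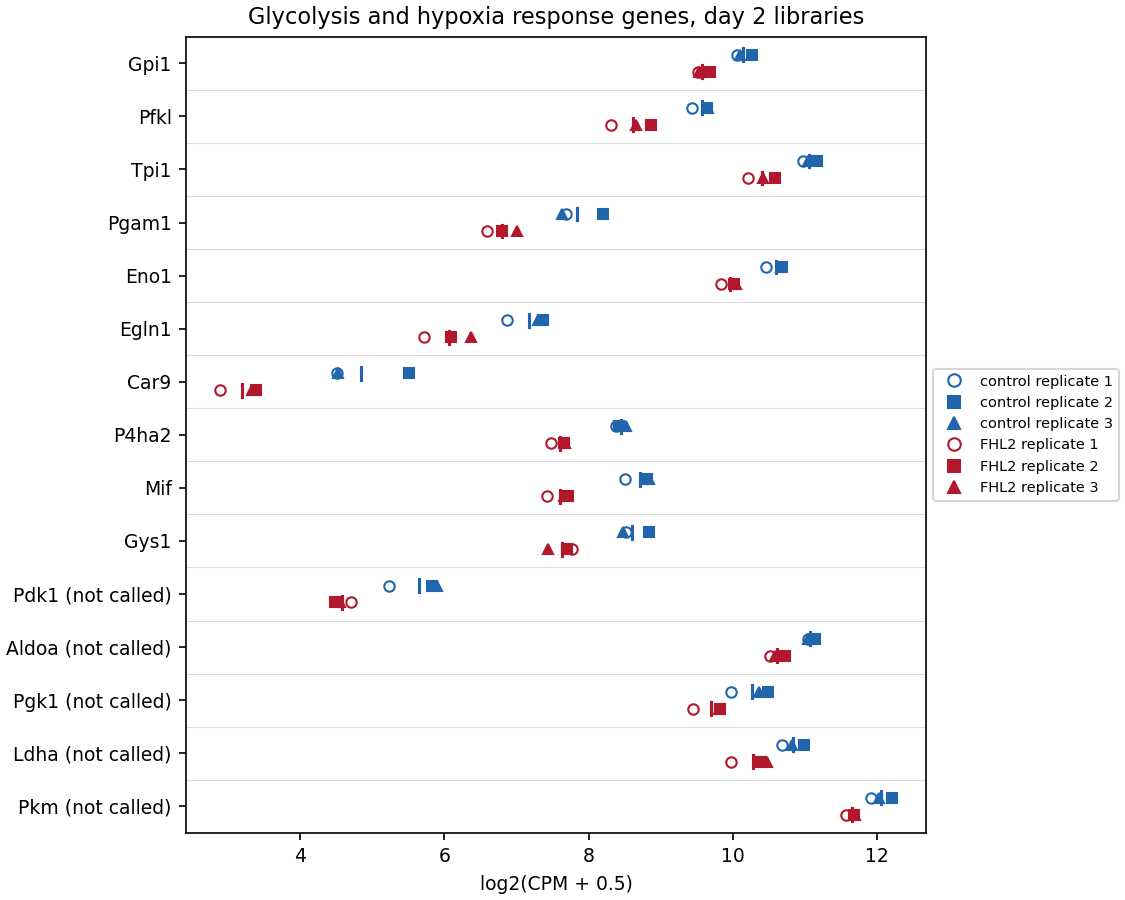
Level of each gene in each day 2 library, as log2(CPM + 0.5), for 10 called genes of glycolysis, the hypoxia response and their neighbours and 5 uncalled enzymes. Marker shapes are replicates and vertical bars are group means of the log values; in all 15 rows the 3 libraries labelled FHL2 lie to the left of the 3 controls.

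Promoters of 4 called genes are printed, picked from the glycolysis and hypoxia genes and P4ha2. They hold the core of the hypoxia-response element, ACGTG, which also lies within the E-box CACGTG. Each is the 250 bases before the start of transcription in RefSeq (build GRCm38.p6), 5′ to 3′ on the strand of the gene, with the match on either strand in capitals (CACGT where it lies on the other strand).
Pgam1: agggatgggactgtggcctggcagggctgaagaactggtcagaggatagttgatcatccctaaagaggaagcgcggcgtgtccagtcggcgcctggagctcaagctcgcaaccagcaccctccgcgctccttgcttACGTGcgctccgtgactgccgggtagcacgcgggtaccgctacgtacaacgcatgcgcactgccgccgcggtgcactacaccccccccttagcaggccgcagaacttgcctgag
Egln1: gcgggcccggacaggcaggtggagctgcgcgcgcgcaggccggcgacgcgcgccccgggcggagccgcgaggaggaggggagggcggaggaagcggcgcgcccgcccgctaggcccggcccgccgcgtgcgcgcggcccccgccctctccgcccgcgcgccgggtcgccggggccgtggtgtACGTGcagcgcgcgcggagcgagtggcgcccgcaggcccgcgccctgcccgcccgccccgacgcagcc
Car9: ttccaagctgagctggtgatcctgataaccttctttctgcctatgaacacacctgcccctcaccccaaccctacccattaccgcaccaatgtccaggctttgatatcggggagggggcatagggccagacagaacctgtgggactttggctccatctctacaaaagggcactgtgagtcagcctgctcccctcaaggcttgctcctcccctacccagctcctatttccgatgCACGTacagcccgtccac
P4ha2: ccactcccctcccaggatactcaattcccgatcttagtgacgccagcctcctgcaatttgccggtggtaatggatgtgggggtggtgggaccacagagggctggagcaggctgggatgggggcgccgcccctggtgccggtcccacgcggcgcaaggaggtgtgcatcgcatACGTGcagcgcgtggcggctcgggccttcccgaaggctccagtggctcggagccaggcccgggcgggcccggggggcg
These windows are chr19:41911621-41911870 (plus strand) for Pgam1, chr8:124949255-124949504 (minus strand) for Egln1, chr4:43506776-43507025 (plus strand) for Car9 and chr11:54100674-54100923 (plus strand) for P4ha2. In windows of 300 bases around the start, searched on both strands and counting a gene where any of its starts matched, ACGTG occurred in 22 of the 31 glycolysis and hypoxia genes with a window (71%) and in 29.6% of the 9149 tested genes with one. Among the genes called lower it occurred in 9 of 27 (33.3%), with Lrig1, Net1 and Klhdc10 among those not printed. Among the 7 called members of the list it occurred in 3 (42.9%). It occurred in 19.6% of all 32851 RefSeq windows. The NFAT core TGGAAA occurred in 6 of the 27 genes called lower (22.2%), in 19.2% of tested genes and in 21.4% of all windows. A match describes letters and not a site in use.

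The calls that held in every fit were Fosl1, Cbr2, Igfbp4 and Mif. Fosl1, a subunit of the AP-1 transcription factor, was at 51.3, 71.1 and 59.4 CPM in the libraries labelled FHL2 and at 185, 273 and 201 CPM in control. Even the highest of the former was far below the lowest control, and Fosl1 was 3.63-fold lower (log2 fold change -1.86 ± 0.18, adjusted p = 5.81e-04). Cbr2, a carbonyl reductase, was at 70.2, 55.0 and 58.6 CPM against 153, 141 and 164 CPM (2.49-fold lower, adjusted p = 0.00215). Mif, the cytokine macrophage migration inhibitory factor, was at 172, 209 and 202 CPM against 364, 446 and 457 CPM (2.18-fold lower, adjusted p = 0.00215). Each showed FHL2-labelled levels clustered below the controls. Igfbp4, a secreted protein that binds insulin-like growth factors and one of the more abundant of the 39, was at 1063, 1142 and 1169 CPM against 1898, 2392 and 2078 CPM (1.89-fold lower, adjusted p = 0.00215). Over 21 alternative fits the log2 fold change of Fosl1 stayed between -2.00 and -1.67, and the highest adjusted p of the 4 genes was 0.0399.

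Genes of the insulin and growth factor list included 3 that fell among 32 tested, while 0.242% of all tested genes were called lower. The list median of -0.17 was -0.273 without FHL2 replicate 1, -0.0568 without FHL2 replicate 3 and -0.102 without control replicate 1. Beside Igfbp4, the members that fell were Igfbp5 and Lrig1. Igfbp5, another binding protein of insulin-like growth factors, was at 30.1, 22.2 and 13.3 CPM against 51.8, 71.3 and 54.1 CPM (2.71-fold lower, adjusted p = 0.042). Lrig1, a membrane protein that restrains signalling by the EGF receptor, was at 51.7, 51.2 and 53.6 CPM against 114, 113 and 94.2 CPM (2.05-fold lower, adjusted p = 0.0134). The Lrig1 levels under the FHL2 label were nearly equal, while those of Igfbp5 spread widely below the controls. Igfbp5 kept its call only without FHL2 replicate 1, and Lrig1 lost it without FHL2 replicate 2, control replicate 1 or control replicate 2 (adjusted p up to 0.244 and 0.111).

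The renin-angiotensin system changed at its substrate, its enzyme and 1 receptor. Of 9 tested members, 2 fell and 1 rose, while 0.242% of all tested genes were called lower and 0.0624% higher. The list's median of -0.16 had no stable sign, since it was 0.118 without FHL2 replicate 2, -0.0488 without control replicate 2, -0.29 without control replicate 3 and -0.479 without FHL2 replicate 1. Ren1, the gene of renin, which cuts angiotensinogen, was at 4.72, 6.57 and 7.93 CPM under the FHL2 label and 26.3, 36.1 and 20.7 CPM in control (4.32-fold lower, log2 fold change -2.11 ± 0.32, adjusted p = 0.0134). Agt, the gene of angiotensinogen, was at 106, 109 and 105 CPM against 173, 159.8 and 217 CPM (1.72-fold lower, adjusted p = 0.0357). Agtr2, the angiotensin II receptor of type 2, went the other way, at 85.3, 54.2 and 64.9 CPM against 28.3, 34.6 and 21.8 CPM (2.41-fold higher, adjusted p = 0.0307). All 3 genes had groups that did not overlap, and FHL2 replicate 1 was the highest for Agtr2. Agt and Agtr2 lost the call without any 1 of the 6 libraries (adjusted p up to 0.199 and 0.124), and Ren1 without FHL2 replicate 2 or control replicate 2 (up to 0.125).

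The genes of the extracellular matrix, which 3T3-L1 cells remodel as they differentiate, mostly had lower values under the FHL2 label. Of all tested genes 0.242% were called lower and 0.0624% higher, and 7.91% lay wholly below the controls and 8% above. Among 20 tested collagens 2 fell, 0 rose, 9 lay wholly below the controls and 0 above, with a median of -0.31. That median was -0.11 without control replicate 1 and -0.197 without FHL2 replicate 3, and it was -0.614 over the 3 libraries with many genes detected and -0.073 over the 3 with few. Among 39 matricellular and other matrix proteins 2 fell and 1 rose, 13 lay wholly below and 3 above, with a median of -0.33 (-0.21 without FHL2 replicate 2). Among 15 crosslinking and other collagen-modifying enzymes 2 fell, the crosslinking enzyme Tgm2 and the proline hydroxylase P4ha2.

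Tgm2, the transglutaminase that crosslinks matrix proteins, had the largest fold of the 39. It had no count in FHL2 replicates 1 and 2 and 15 counts in FHL2 replicate 3, against 180, 217 and 143 counts in control. Its level was 0, 0 and 0.832 CPM under the FHL2 label and 11.6, 14.6 and 14.2 CPM in control (log2 fold change -5.49 ± 0.94, adjusted p = 0.02). With levels this low, the fitted fold rests on 1 library and on the handling of empty ones, and Tgm2 did not pass in limma-voom. Tnc, the gene of tenascin C, a matrix protein of remodelling tissue, was at 189.7, 171 and 148 CPM against 344, 373 and 269 CPM (1.94-fold lower, adjusted p = 0.0134). Fbn1, the main fibrillin of microfibrils, was at 162, 157 and 127 CPM against 268, 258 and 237 CPM (1.71-fold lower, adjusted p = 0.0251). For both, FHL2 replicate 3 was the lowest library and control replicate 3 the lowest of its group.

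The 2 collagens that edgeR called belong to basement membranes. DESeq2 and limma-voom each called 6 collagens lower (135 and 68 of all tested genes), and not all of these are named here. Col4a1 was at 2624, 2291 and 2058 CPM against 3699, 3118 and 3405 CPM (1.47-fold lower, adjusted p = 0.0434), and Col18a1 at 102, 113 and 98.1 CPM against 179.5, 187 and 157 CPM (1.67-fold lower, adjusted p = 0.0357). Other basement membrane genes with groups apart that did not pass, named after their values were seen, were Col4a2 (-0.53, adjusted p = 0.114) and Lamb1 (-0.53, adjusted p = 0.0853). Dcn, the gene of decorin, a proteoglycan that coats collagen fibrils, rose, at 553, 606 and 607 CPM against 341, 423 and 324 CPM (1.62-fold higher, adjusted p = 0.0292). Col3a1, an abundant fibrillar collagen, was at 6798, 6088 and 6252 CPM against 7176, 6373 and 6553 CPM (-0.07, adjusted p = 0.886). Fn1, the gene of fibronectin, was at -0.50 (adjusted p = 0.281). Matrix transcripts are long, and log2 fold changes fell with transcript length. Over 9734 genes that averaged 5 CPM or more, Spearman's rho across genes, which are not independent replicates, was -0.249, and the median went from 0.139 in the shortest class of 5 classes of equal size to -0.107 in the longest. At day 0 rho was -0.24 over those of the genes tested there. At day 2 the trend was steepest in FHL2 replicate 3. As deviations from the mean of the 6 libraries, its medians for the shortest and longest classes were 0.234 and -0.265. They were 0.0587 and -0.0238 in FHL2 replicate 2 and, the other way, -0.0535 and 0.121 in FHL2 replicate 1. With a length offset the collagen median was -0.165, and Fbn1 lost its call. Fbn1, Col18a1 and Col4a1 kept the call under at most 1 of the 6 single left-out libraries, Dcn under 1, and Tnc without FHL2 replicate 1 or control replicate 3 alone. Col4a1 also lost its call under RLE and upper-quartile scaling, a GC offset and robust dispersion, Col18a1 with either GC offset, and Dcn with the GC offset.

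**Figure D3:**
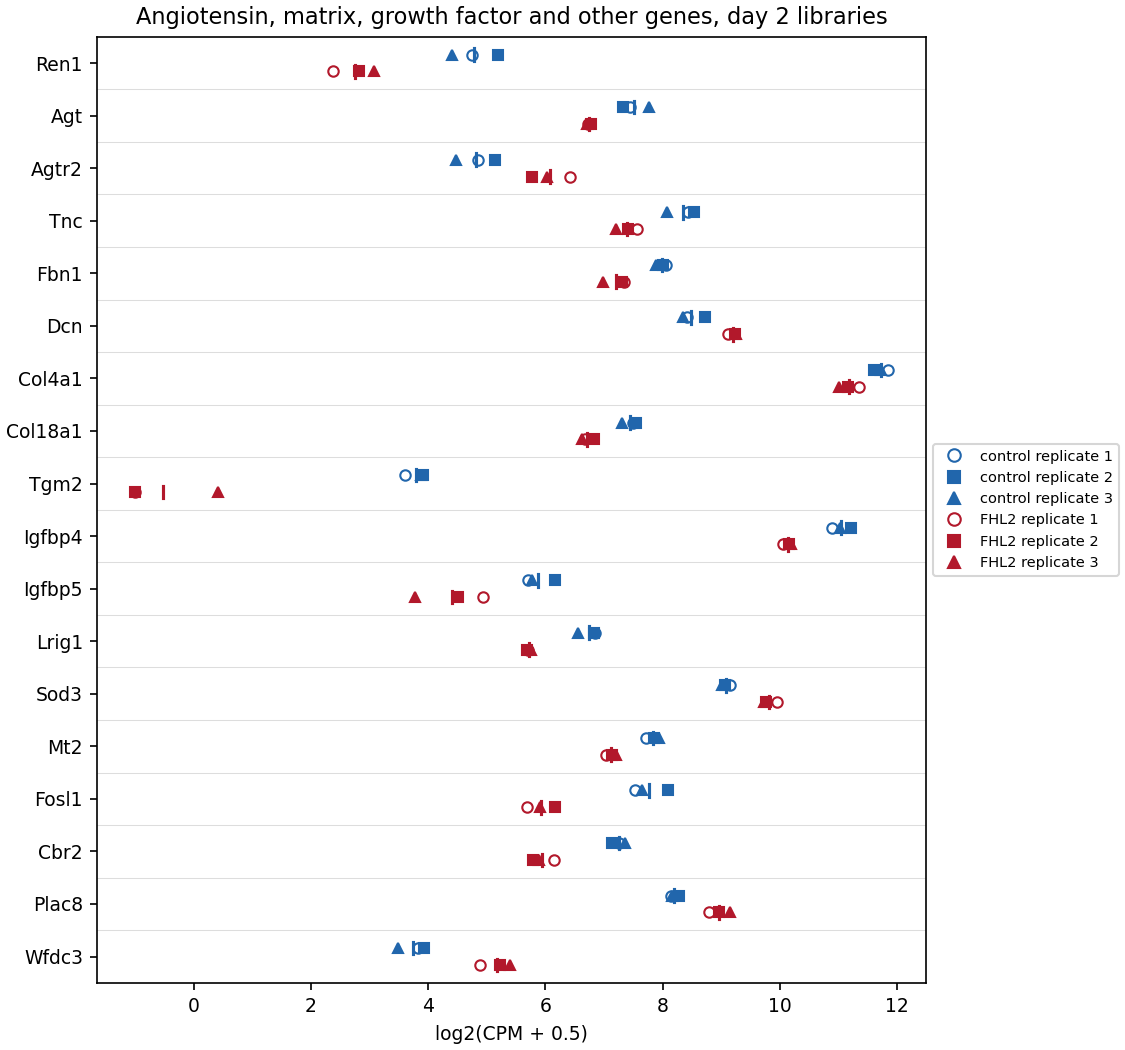
Level of 18 other called genes in each day 2 library, as log2(CPM + 0.5), with replicates as marker shapes and vertical bars at group means of the log values. In every row the groups are apart; Agtr2, Dcn, Sod3, Plac8 and Wfdc3 lie to the right of control and the other 13 to the left.

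Among the 8 genes that rose, Sod3, the secreted superoxide dismutase, was at 989, 869.7 and 847 CPM under the FHL2 label and 566, 538 and 519 CPM in control (1.67-fold higher, log2 fold change 0.74 ± 0.11, adjusted p = 0.0129). Plac8, a small cysteine-rich protein, was at 443, 496 and 566 CPM against 284, 311 and 285 CPM (1.71-fold higher, adjusted p = 0.015). Wfdc3, a member of the family of secreted protease inhibitors with a WAP domain, was at 29.2, 37.0 and 41.5 CPM against 13.7, 14.7 and 10.8 CPM (2.75-fold higher, adjusted p = 0.026). The control levels of these genes were close together and all below the FHL2-labelled ones. Rplp1, a protein of the large ribosomal subunit, was at 2974, 3700.1 and 3795 CPM against 2199.5, 2362 and 2564 CPM (1.47-fold higher, adjusted p = 0.0434). The remaining genes that rose were the predicted genes Gm5886 (1.13, adjusted p = 0.0159) and Gm11942 (0.76, adjusted p = 0.0134), whose reads may be shared with related copies and which were named after their values were seen. Without FHL2 replicate 2, and likewise without control replicate 2, 0 of the 8 passed.

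Rplp1 stood with other ribosomal protein genes, a group chosen after its values were seen. Of 69 with a mean of at least 20 CPM, 67 had a positive log2 fold change, 21 had all libraries labelled FHL2 above control (8% of all genes had that order) and only Rplp1 was called. Their median was 0.268, and it was 0.13 without FHL2 replicate 3. It was 0.544 over the 3 libraries with many genes detected, where FHL2 replicate 3 is the only FHL2-labelled library. Over the 3 with few, where control replicate 3 is the only control, it was 0.11. DESeq2 called 11 of them higher, against 68 of all 12819 tested genes. Rpl41 (0.54, adjusted p = 0.0605) and Rpl31 (0.71, adjusted p = 0.0844) were near the threshold, as were Hint1 (0.64, adjusted p = 0.0605) and Ifitm3 (0.45, adjusted p = 0.0673). These transcripts are short, and the length trend given above runs the same way. With the length offset Rplp1 did not pass.

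The other genes that fell were of mixed roles. Emb, the gene of embigin, a membrane partner of lactate transporters, was at 5.93, 10.9 and 9.09 CPM against 34.8, 39.2 and 22.2 CPM (3.71-fold lower, adjusted p = 0.0182). Kif26b, a kinesin-like protein, was at 44.8, 31.9 and 28.7 CPM against 74.6, 99.4 and 90.1 CPM (2.50-fold lower, adjusted p = 0.0134). Ccdc85b was at 20.3, 25.8 and 34.9 CPM against 55.8, 77.9 and 93.7 CPM (2.80-fold lower, adjusted p = 0.0159). In each the groups were apart, with FHL2 replicate 3 nearest to control for Ccdc85b. Mt2, a metallothionein that glucocorticoids and metals induce, was at 131, 141 and 147 CPM against 211, 232 and 244 CPM (1.64-fold lower, adjusted p = 0.0292). The last 4, named after their values were seen, were Net1, an exchange factor of RhoA (-0.87, adjusted p = 0.0357), the actin-binding Triobp (-0.85, adjusted p = 0.0158), Klhdc10 (-0.77, adjusted p = 0.0434) and the predicted gene Gm13394 (-0.85, adjusted p = 0.0136). Mt2 and Klhdc10 lost the call without any 1 of the 6 libraries, and Emb and Net1 held it in 1 of those 6 fits each.

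No adipogenic transcription factor passed edgeR's test, DESeq2's or limma-voom's. At an unadjusted p under 0.05 in edgeR, 1 of the 20 tested was higher and 2 lower, against 518 and 623 of all 12819 tested genes. Of the 20, 16 had a negative value, 3 lay wholly below control (7.91% of all tested genes did) and the median was -0.23. Cebpb, the early activator, was at 71.5, 87.7 and 109 CPM against 116, 147 and 122 CPM (-0.53, adjusted p = 0.338), with groups that did not overlap. Cebpd was at 149, 172 and 255 CPM against 186, 305 and 315 CPM (-0.48, adjusted p = 0.526), and Pparg at 10.2, 18.3 and 20.1 CPM against 20.4, 36.9 and 17.1 CPM (-0.61, adjusted p = 0.663). For both the groups overlapped. Cebpa was at 23.9, 23.5 and 24.2 CPM against 20.6, 34.3 and 37.4 CPM (-0.37, adjusted p = 0.768), and Dlk1, the preadipocyte marker lost in mature fat cells, at 5816, 6313 and 6065 CPM against 5574, 5599 and 7077 CPM (-0.00, adjusted p = 0.997).

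Genes of the mature fat cell mostly had lower values under the FHL2 label. Of 23 tested members 22 had a negative value, 9 lay wholly below control and 1 above (7.91% and 8% of all tested genes) and the median was -0.56. In edgeR 0 were called (0.304% of all genes were). At an unadjusted p under 0.05 there were 10, all lower, against 623 lower of all 12819 tested genes. DESeq2 called 2 lower and limma-voom 1, against 135 and 68 of all tested genes. DESeq2 gave an adjusted p to 35 of the 39 genes that edgeR called. It gave none to Ren1, Emb, Car9 and Tgm2, which averaged 6.88 to 20.4 CPM. Its counts for this and other lists may therefore cover only a part of the members. Plin1, the main coat protein of lipid droplets, was at 2.42, 5.53 and 3.49 CPM against 13.2, 17.3 and 12.9 CPM (-1.92 ± 0.42, adjusted p = 0.0844). Its highest FHL2-labelled library was below its lowest control, and the test was missed. Plin4, named after its values were seen, was at 16.6, 23.6 and 19.4 CPM against 48.0, 33.0 and 47.7 CPM (-1.11, adjusted p = 0.091). Fabp4, the fatty acid carrier of fat cells, was at 7.65, 8.52 and 7.71 CPM against 17.9, 19.1 and 6.57 CPM (-0.87, adjusted p = 0.554). Here control replicate 3 was the lowest of all 6 libraries. Adipoq, the gene of adiponectin, was at 0, 2.21 and 0 CPM against 2.77, 2.35 and 5.58 CPM (-2.27, adjusted p = 0.749), which is close to the limit of detection. Plin2, the droplet protein of many cell types, was the member with all libraries above control (0.22, adjusted p = 0.609). The list's median was -0.856 over the 3 libraries with many genes detected, -0.271 over the 3 with few and -0.845 without control replicate 3.

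No gene of the NFAT5 and tonicity list passed edgeR's test at day 2 (0.304% of all tested genes did). At an unadjusted p under 0.05, 1 was higher and 3 lower, against 518 and 623 of all 12819 tested genes. DESeq2 called 2 of the list lower and limma-voom 0, against 135 and 68 of all tested genes. Of 16 tested genes 2 lay wholly above control and 5 below, orders that 8% and 7.91% of all tested genes had. The median of the list was -0.11 (-0.26 without FHL2 replicate 3, -0.179 without control replicate 3). Slc5a3, a myo-inositol carrier, was at 118, 78.1 and 56.6 CPM against 96.0, 54.7 and 76.2 CPM (0.15, adjusted p = 0.927). Akr1b3, the aldose reductase that makes sorbitol, was at 39.6, 56.7 and 65.3 CPM against 62.2, 61.3 and 47.3 CPM (-0.08, adjusted p = 0.956). Slc6a6, the taurine carrier, was at 274, 252 and 216 CPM against 288, 309 and 289 CPM (-0.26, adjusted p = 0.59). The groups overlapped for Slc5a3 and Akr1b3, and those of Slc6a6 were apart by a small step.

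Genes that respond to the glucocorticoid and cAMP in the induction mixture numbered 26, of which Mt2 fell, 0 rose, 10 lay wholly below control and 1 above, with a median of -0.26. Over all tested genes 7.91% lay wholly below and 8% above, and 0.242% were called lower and 0.0624% higher. DESeq2 called 6 of the list lower and limma-voom 2, against 135 and 68 of all tested genes. Interferon-stimulated genes went the other way in value. Of 37 tested members 30 were positive, 14 lay wholly above control and 1 below and the median was 0.39. In edgeR 0 were called and 10 higher and 1 lower had an unadjusted p under 0.05, and DESeq2 called 2 higher and 1 lower and limma-voom 0. Of all 12819 tested genes, 518 were higher and 623 lower at that unadjusted p, and DESeq2 called 68 higher and 135 lower. Ifit3, an antiviral effector, was at 13.3, 10.2 and 8.93 CPM against 1.55, 4.23 and 2.89 CPM (1.90, adjusted p = 0.164), and Oasl2 at 171, 152 and 148 CPM against 109.8, 104 and 93.6 CPM (0.62, adjusted p = 0.0995). Samhd1 was the member wholly below control (-0.60, adjusted p = 0.118), and these 3 were named after their values were seen. Of 31 genes of G2 and mitosis 23 were positive, 9 lay wholly above control and 1 (Top2a) below and the median was 0.37. In edgeR 0 were called and 8 higher and 1 lower had an unadjusted p under 0.05, and DESeq2 called 1 higher and limma-voom 0. The G2 median was 0.132 without control replicate 3. The 42 genes of S phase had a median of 0.06, which turned to -0.0585 without FHL2 replicate 3 and was 0.119 without FHL2 replicate 1, and 0 had an unadjusted p under 0.05 or a call in DESeq2 or limma-voom.

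**Figure D4:**
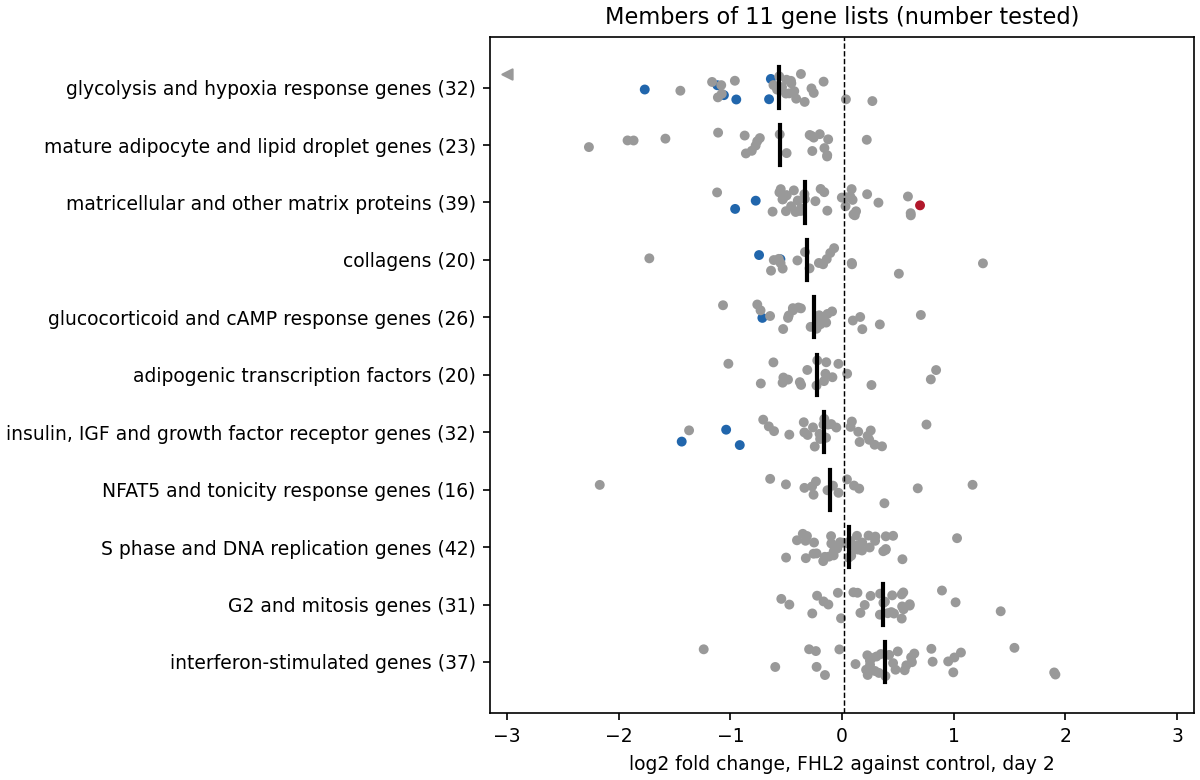
Log2 fold change at day 2 of the tested members of 11 gene lists (1 point per gene, number tested in brackets), with black bars at list medians, a dashed line at the median of all genes (0.014) and arrowheads for values beyond 3. Genes called lower and higher are in blue and red; the glycolysis and mature adipocyte lists sit to the left (medians -0.56) and the interferon and G2 lists to the right (0.39 and 0.37).

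Most of the remaining lists had no call in edgeR. The antioxidant list, with 30 tested genes, held Sod3 and Mt2 in opposite directions. Lists of the Wnt pathway (22 tested), BMP and TGF-beta (30), YAP and TEAD targets (20), integrins (22), actin and SRF targets (26), matrix proteases (24), inflammation (29), cholesterol synthesis (26), fatty acid oxidation (32), p53 targets (18), the unfolded protein response (26) and the circadian clock (18) had 0 genes called by edgeR each, with medians between -0.27 and 0.14 (-0.342 to 0.184 without single libraries). Over the 293 tested memberships of these 12 lists, 21 were higher and 31 lower at an unadjusted p under 0.05. Of all 12819 tested genes, 518 were higher and 623 lower at that p. DESeq2 called 6 memberships higher, 4 of them matrix proteases or their inhibitors, and 4 lower (68 and 135 over all genes). In limma-voom 1 was called each way (23 and 68 over all genes). The fit of all 12 libraries called 17 (299 over all genes it tested). None of these counts shows that the genes did not differ.

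Set beside the same comparison at day 0, before induction, most of the 39 genes already had the same sign. FHL2 against control at day 0 called 246 of 14044 genes (1.75%), 126 higher (0.897%) and 120 lower (0.854%), with libraries that were far more alike. The biological coefficient of variation was 0.12 at day 0 and 0.39 at day 2. The days use separate libraries of both labels. Of 38 of the 39 genes tested at day 0, 33 had the sign of day 2. At day 0 11 were called, among them Tnc with the opposite sign. The share of all tested genes with the same sign at both days was not counted. Sod3 was higher at day 0 too (491 ± 17.0 against 269.7 ± 13.5 CPM, SD, n = 3, log2 fold change 0.86, adjusted p = 1.38e-04). Mif (-0.54, adjusted p = 0.00724), Pfkl (-0.54, adjusted p = 0.01), Lrig1 (-0.86, adjusted p = 0.00148) and Tpi1 (-0.44, adjusted p = 0.0192) were lower there as well, as were Kif26b, Emb, Net1 and Gm13394, and Gm5886 was higher. The median of the glycolysis list was -0.23 at day 0, that of the mature adipocyte list was -0.10 and that of the interferon list was -0.12.

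Values close to 0 at day 0 were seen for Plac8 (0.03, adjusted p = 0.883), Car9 (-0.04, adjusted p = 0.951), Egln1 (0.02, adjusted p = 0.947) and Fbn1 (0.01, adjusted p = 0.975). A difference between the days was tested for each gene as an interaction over all 12 libraries, and 1 of 14435 genes passed (0.00693%), while 996 had an unadjusted p under 0.05. That gene was Tnc. It was higher under the FHL2 label at day 0 (493 ± 36.1 against 383 ± 14.5 CPM, SD, n = 3, log2 fold change 0.36, adjusted p = 0.0261) and lower at day 2 (169 ± 20.9 against 329 ± 53.7 CPM). The interaction of Tnc was -1.30 ± 0.17 (SE, adjusted p = 0.0276). It kept its call without FHL2 day 2 replicate 1, control day 2 replicate 2 or control day 2 replicate 3 and lost it without any of the other 9 libraries (adjusted p up to 0.171). With the replicate block it was -1.29 and not called (adjusted p = 0.0888), and 0 genes passed. For Fosl1 (adjusted p = 0.0732), Cbr2 (0.0732), Ren1 (0.0732) and Plac8 (0.0736) the interaction was near the threshold, and Ren1 had too few counts at day 0 to be tested there alone.

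**Figure D5:**
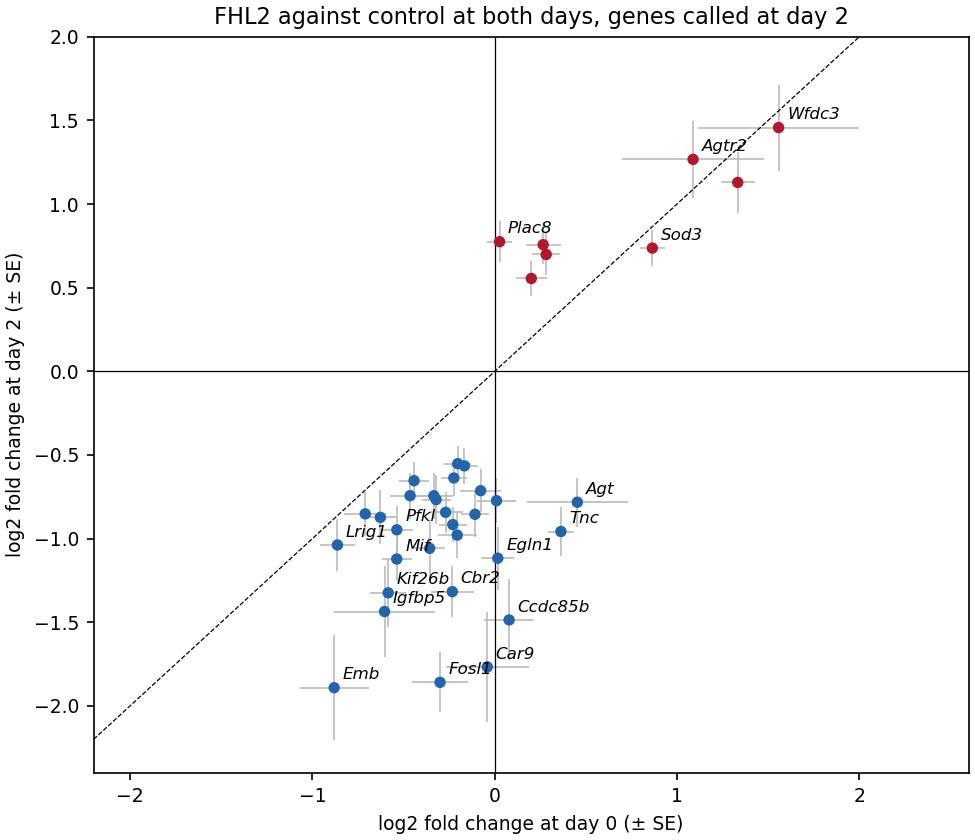
Log2 fold change of FHL2 against control at day 0 (x axis) and at day 2 (y axis), each ± SE, for the 37 genes called at day 2 that were tested at both days other than Tgm2, whose day 2 value lies off the scale. The dashed line marks equal values; Sod3 lies near it, Plac8, Egln1 and Car9 lie close to 0 on the x axis, and Tnc and Agt lie in the quadrant that is positive at day 0 and negative at day 2.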

How the data were processed

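The authors deposited raw counts per Ensembl gene identifier in a single table with a column for each of the 12 libraries. Of its 55414 identifiers, 52081 had a symbol in the name table used. Per the submitters' processing notes the build was GRCm39 (mm39) and the tools were HISAT2 2.2.1, Trimmomatic 0.39, limma, HTSeq 0.11.0, FastQC 0.11.9 and R 4.1.0. No source used here gives their settings, how strand was treated or which annotation was counted.

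The 6 day 2 libraries were fitted alone with edgeR 4.0.16 (R 4.3.3): filterByExpr by group, TMM scaling, and the quasi-likelihood test with Benjamini-Hochberg adjustment across the whole table. Called genes have an adjusted p below 0.05. Adjusted p-values are from edgeR, 2-sided, unless another tool is named. CPM are counts scaled by TMM library size, given in the order of replicates 1, 2 and 3. Day 0 was fitted likewise, and the difference between the days as an interaction over all 12 libraries. The fitting was tested on simulated data.

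The comparison and the gene lists were chosen with earlier results of these data known. Named genes were Fhl2, Nfat5, 8 adipogenic genes and 3 tonicity genes, the 10 largest called rises and falls at an average of 5 CPM or more, a symbol that is no clone name and groups that do not overlap (filled with the uncalled genes of smallest p), up to 4 called members of each list, and the 2 highest members of a list without a call; genes outside the rule are marked. Transcript length and GC content came from GENCODE M21 by identifier (99.9% of tested genes) and promoter windows from RefSeq on GRCm38.p6, since no annotation of GRCm39 was used here. Alternatives were all 12 libraries, a replicate block, RLE and upper-quartile scaling, other filters, DESeq2 1.42.0, limma-voom (limma 3.58.1), each library left out, a term for the number of genes detected and a GC offset. Length offsets, fits of the 3 libraries of like gene number and robust dispersion were added after seeing the data. Counts per library limit precision as given in the report.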

Additional observations from a re-analysis of the deposited data

Results flagged for a closer look

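Tnc was the gene whose difference between FHL2 and control itself differed between the days, with an interaction of -1.30 on the log2 scale. Its values at both days and the libraries on which the call rests are given above. In DESeq2 73 genes had such an interaction (34 higher and 39 lower), Tnc among them, and with the replicate block 0 passed (Tnc at -1.29, adjusted p = 0.0888).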

How the results depend on the processing

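All 39 genes kept their sign in every fit run, and Fosl1, Cbr2, Igfbp4 and Mif were called in each of 21 alternatives. Main counts were 39 genes at day 2 (8 higher, 31 lower), 246 at day 0 (126 higher, 120 lower) and 1 in the interaction. Day 2 calls (higher and lower) were 299 (104 and 195) with all 12 libraries, 198 (63 and 135) without a filter, 71 (21 and 50) at a mean of at least 5 CPM, 203 (68 and 135) in DESeq2, 91 (23 and 68) in limma-voom, 146 (40 and 106) with sample quality weights, 49 (16 and 33) with the gene-number term, 65 (9 and 56) with the length offset, 65 (11 and 54) with GC and length, 693 (225 and 468) in the 3 libraries with many genes detected and 290 (206 and 84) in the 3 with few. In the last 2 fits 1 arm had a single library, which is assumed to vary like the others. RLE scaling gave 38, upper-quartile scaling 37, 1 CPM in at least 3 libraries 39, the GC offset 39 and robust dispersion 41. Leaving out 1 library gave 4 to 31 calls at day 2 (0 to 12 higher, 4 to 19 lower), 58 to 1034 at day 0 (20 to 338 higher, 37 to 696 lower) and 0 to 6 in the interaction (0 to 5 higher, 0 to 2 lower). In DESeq2 the interaction had 73 calls (34 and 39). The cause of these changes was not tested, beyond the fewer genes or libraries that a setting holds by its construction.

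At day 2, same-numbered libraries of the groups correlated at 0.0624, -0.0167 and -0.013 in their deviations from the group means. Libraries of unlike number correlated at -0.0649 to 0.091. These values do not settle whether the replicate numbers pair the libraries. With the replicate block, day 2 had 53 calls (10 higher, 43 lower; 38 of the 39 among them), day 0 had 648 (288 and 360) and the interaction 0 (0 and 0), and Dlk1 was at 0.003972.

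Genes without a call changed sign in places (log2 fold changes). Fhl2 was at -0.004907 with quality weights, -0.003412, -0.1805, -0.03926 and -0.02391 without FHL2 replicate 1 or 3 or control replicate 1 or 2, -0.04082 and -0.04619 with the length and the GC and length offsets, and -0.5474 in the libraries with few genes, and single left-out libraries gave at most 0.3385. Dlk1 was at 0.0007154 with upper-quartile scaling, 0.01444 in limma-voom, 0.09039 with quality weights, 0.0272, 3.16e-05 and 0.1088 without FHL2 replicate 1 or 3 or control replicate 3, 0.03202 and 0.04503 with the offsets, and 0.1075 in the libraries with many genes, with -0.06357 as the lowest value without 1 library. Slc5a3 was at -0.1648 and -0.03062 without FHL2 replicate 1 or control replicate 2, -0.02603 with the gene-number term and -0.4219 in the libraries with many genes, against 0.3771 without FHL2 replicate 3. Akr1b3 was at 0.09947 without FHL2 replicate 1, 0.05339 with the term, and 0.06936 and 0.03141 in the libraries with many and few genes, against -0.2394 without FHL2 replicate 3. Cebpd (0.04) and Pfkfb3 (-0.06467) changed sign in the libraries with many genes, and Fabp4 (0.3043) and Nfat5 (0.01713) in those with few.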
